A study of Triticum aestivum with 18 samples.

Results

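The glutathione transferases and the peroxidases of wheat (Triticum aestivum) were examined as 375 loci of a deposited table of 115478, chosen by the words of their descriptions. A locus entered if it was described as a glutathione transferase, as a peroxidase with or without a number, or as a glutathione or ascorbate peroxidase. Peroxygenases were left out. Only 12901 loci carried a description, so enzymes of these families without one were not members. The 12 transferases were 3 copies of DHAR3, 3 copies of TCHQD and 6 others. The 363 peroxidases were 346 loci described as a peroxidase, 14 glutathione peroxidases and 3 copies of a putative ascorbate peroxidase 6. The 346 are called class III peroxidases here, although their descriptions do not give the class.

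Glutathione transferases join the tripeptide glutathione to reactive or foreign molecules, which marks these for storage in the vacuole, and the DHAR enzymes instead use glutathione to regenerate ascorbate. Class III peroxidases are heme enzymes of the cell wall and vacuole that use hydrogen peroxide to couple phenolic compounds, lignin precursors among them. Ascorbate peroxidases remove hydrogen peroxide at the cost of ascorbate, and plant glutathione peroxidases reduce peroxides, lipid peroxides included, mostly with thioredoxin as the donor.

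RNA came from flag leaves and from grains at the grain filling stage, with 3 libraries in each of 6 groups (18 in all). Leaves were taken from untreated plants (control), from plants that had lost 0.5 of the head (partial removal) and from plants that had lost all of it (whole removal). Grains were taken from untreated plants, from heads after the same partial removal, and from shaded heads on plants stripped of all leaves (called shaded grains). Shading and loss of leaves came together, so their parts in a result cannot be told apart. The labels used here name no cultivar or interval between treatment and harvest, and they leave unsaid whether replicate libraries stem from separate plants. The p-values therefore measure the spread between these libraries, which may be technical. In such whole organs, fewer cells of a type and less RNA per cell cannot be told apart.

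Levels are FPKM, sequenced fragments corrected for the length of the transcript and for the fragments mapped in that library. For comparisons between treatments FPKM was scaled between libraries within a tissue, and values so treated are called scaled FPKM. Loci were tested in a tissue where 3 or more of its 9 libraries reached an FPKM of 1. Differences are log2 differences of scaled FPKM + 1 with their standard error, from limma, which understate the change of low loci. Calls were made where the p, adjusted by Benjamini and Hochberg over all loci tested, was under 0.05. Leaf markers (78 loci of chlorophyll-binding proteins and the small subunit of Rubisco) summed to between 1670 and 8106 FPKM in the leaf libraries and to between 4.53 and 57.0 FPKM in the grain libraries. Shaded grain library 2 stood apart, with 12276 loci at an FPKM of at least 1 and 89.9% of its FPKM on loci without a gene name, against 36709 to 47111 loci and 13.9% to 55.4% in the other 17 libraries. In leaves, that share was 13.9% to 19.7% in controls, 27.0% to 34.1% after partial removal and 25.8% to 34.2% after whole removal, and its part in the leaf results was not tested.

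Most members were barely detected. Of the 375, 53 could be tested in leaf, 93 in grain, 28 in both and 257 in neither, and 232 stayed below an FPKM of 1 in all 18 libraries. Of the 12 described transferases, 10 passed the filter in leaf and 5 in grain, and 0 were listed at 0 in every grain library. This count does not extend to 67 loci without a matching description that carry the KEGG entry for glutathione S-transferase. Of those, 25 were tested in leaf and 23 in grain. For the class III peroxidases the larger count was in grain, with 27 of 346 tested in leaf and 74 in grain. Of these 346, 110 were listed at 0 in every leaf library and 33 in every grain library. Among the glutathione peroxidases, 13 of 14 were tested in leaf and 12 in grain, and of the 3 ascorbate peroxidases 3 and 2. By the arms in the gene names, chromosomes of homoeologous group 2 held 103 of the 346 class III loci, of which 5 were tested in leaf and 21 in grain. The A, B and D genomes held 108, 108 and 121 of them. There were 32 assembly scaffolds with more than 1 class III peroxidase, and together they held 73. The scaffold with the most carried 7, on chromosome arm 2DL, and none of these was tested in either tissue. Reads of near-identical copies can be shared between them, so the arm of a single copy is uncertain, and 5 members were loci that join 2 gene models.

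The classes stood at different heights in the 2 tissues. Summed over the class, the glutathione peroxidases reached 631 ± 135 FPKM (SD, n = 3) in control leaves and 126 ± 16.1 in control grains. The class III peroxidases summed to 115 ± 31.6 FPKM in control leaves and to 538 ± 168 in control grains. Ascorbate peroxidases summed to 37.4 ± 6.24 FPKM in control leaves and to 4.30 ± 0.628 in control grains. Thus the sums did not overlap between the tissues in any of these 3 classes. The transferases summed to 100.3 ± 84.7 FPKM in control leaves and to 49.1 ± 15.5 in control grains, and here the ranges overlapped, since the leaf sum ran from 38.5 to 197 FPKM.

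**Figure D1:**
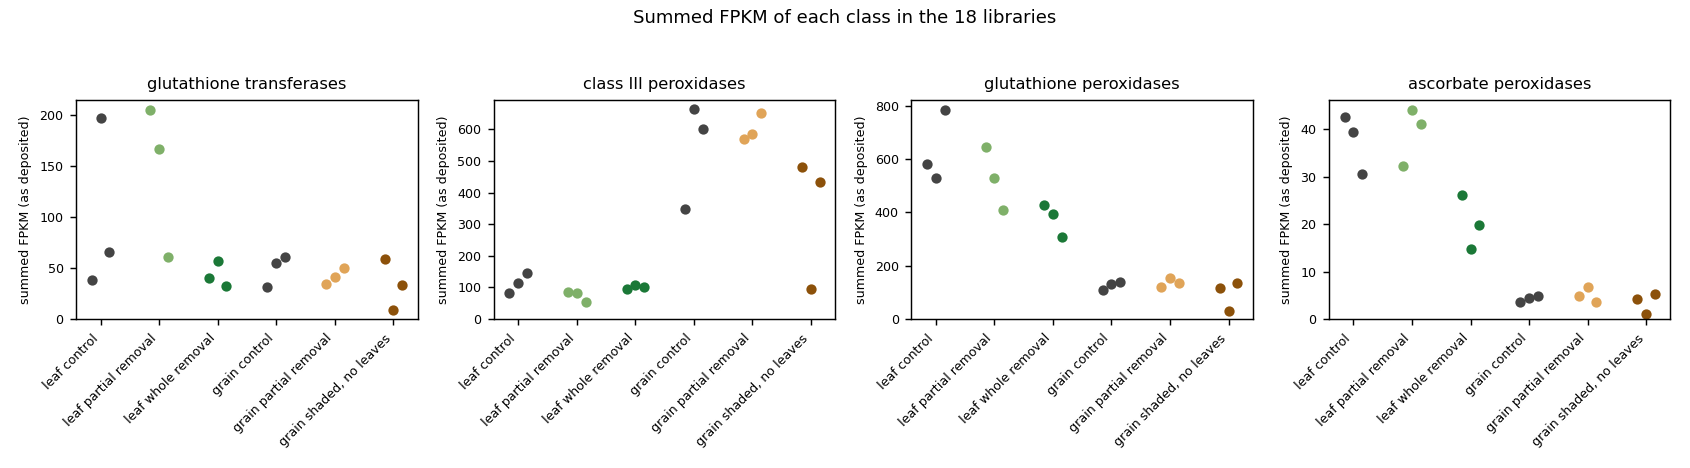
Summed FPKM as deposited (vertical axis) of the 4 classes in each of the 18 libraries (1 point each, 3 per group along the horizontal axis). Class III peroxidases are high in grains and glutathione and ascorbate peroxidases in leaves, and the low point among shaded grains is library 2, which stood apart before scaling.

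The difference between control leaves and control grains was tested over the 57698 loci with an FPKM of at least 1 in at least 3 of the 12 control and partial-removal libraries. Across them 71.7% were called, 34.9% higher in leaf and 36.8% lower, so most loci of the table differ between these tissues. All 14 glutathione peroxidases were called, 13 of them higher in leaf, with a median log2 difference over the class of 1.57 against -0.04 over all loci. All 3 ascorbate peroxidases were called higher in leaf, with a median of 2.14. Of 85 class III peroxidases tested, 62 were called lower in leaf and 15 higher, with a median of -1.44. Of 10 transferases tested, 5 were called higher in leaf and 1 lower, with a median of 0.66. Of the 62 class III loci called lower, 60 had passed the filter through the grain libraries alone, and 13 of the 15 called higher through the leaf libraries alone, so these counts and the median follow in part from the filter. The same held for 4 of the 5 transferases called higher, for 2 glutathione peroxidases and 1 ascorbate peroxidase called higher, and for the glutathione peroxidase called lower. Without the filter the class III median was -0.06 over 331 loci and the transferase median 0.43 over 12, and of 348 peroxidases 45 were called higher in leaf and 128 lower. With a pseudocount of 0.1 the class III median was -3.38 and the transferase median 1.28. The medians of the 4 classes kept their sign under these settings, without scaling and with quantile normalization.

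**Figure D2:**
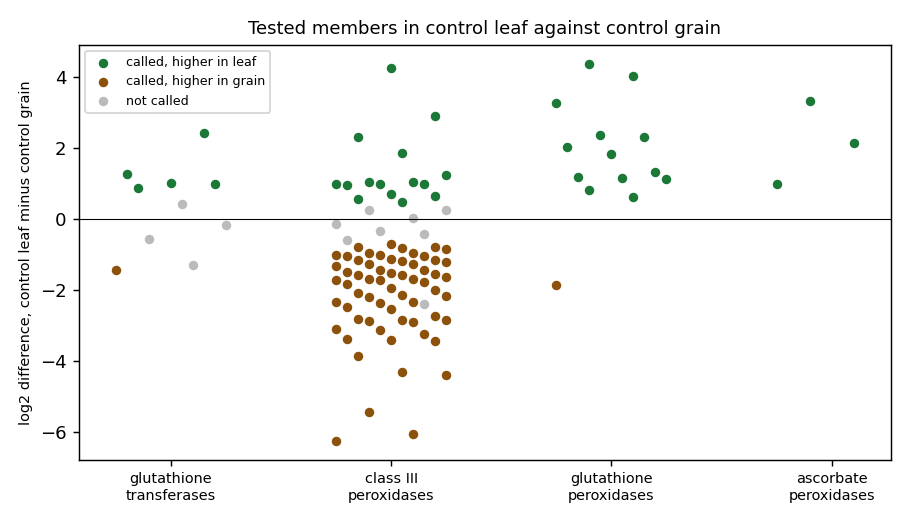
Log2 difference of control leaf minus control grain (vertical axis) for each tested member, by class (horizontal axis), with 1 point per locus. Green points were called higher in leaf, brown points were called higher in grain and grey points were not called, and 62 of the 85 class III points are brown.

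The grain side of the class III peroxidases was led by copies on the group 3 chromosomes. In the 3 control grains MSTRG.23911 on 3AL measured 51.7, 131 and 104 FPKM. The next in level, MSTRG.27548 on 3B and MSTRG.30685 on 3DL, averaged 80.8 ± 30.4 and 54.8 ± 0.940 FPKM there. These 3 loci carried 43.0% of the class III signal in control grains, and their averages follow an order that the spread between libraries does not separate. In control leaves MSTRG.23911 was listed at 0 in library 1 and measured 0.535 and 0.875 FPKM in libraries 2 and 3. The log2 difference of leaf minus grain was -6.24 ± 0.24 (limma adjusted p = 1.88e-09) for MSTRG.23911, -6.04 ± 0.23 for MSTRG.27548 and -5.42 ± 0.22 for MSTRG.30685. The fourth in size, MSTRG.34164 on 3DS, averaged 21.6 ± 10.4 FPKM in control grains and differed by -4.40 ± 0.23. All of these group 3 loci passed the filter through the grain libraries alone, so the direction of their tests was in part set by it. They were also called in the fit without a filter. The same leaf libraries 2 and 3 carried gliadin and glutenin transcripts, which belong to the grain, at summed levels of 38.0 and 57.8 FPKM. In library 1 those 17 storage protein loci were all at 0, and the part of such RNA in these low leaf values was not tested.

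Leaf class III peroxidases were fewer and lower. MSTRG.9880 on 1DS was the highest, at 11.7, 20.5 and 42.9 FPKM in the 3 control leaves. It was listed at 0 in all 3 control grains, so no fold is given. It carried 21.9% of the class III signal in control leaves. Next came MSTRG.16608 on 2BL at 9.21 ± 1.05 FPKM and MSTRG.6857 on 1BS at 8.05 ± 2.97 FPKM, a pair that the spread between libraries does not separate.

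The highest members in leaf were glutathione peroxidases. MSTRG.39693 on 4BS averaged 94.8 ± 23.5 FPKM in control leaves, MSTRG.36575 on 4AS 87.5 ± 20.6 FPKM and MSTRG.66738 on 7AS 77.7 ± 19.9 FPKM, an order that does not exceed their spread. MSTRG.36575 was also the highest of the class in control grains, at 28.0 ± 4.44 FPKM. The widest differences between the tissues were on group 7. In control leaves MSTRG.66738 measured 70.0, 62.7 and 100.3 FPKM, and in control grains 1.26, 2.06 and 2.30 FPKM. Every leaf value thus lay far above every grain value, and the log2 difference was 4.37 ± 0.18 (limma adjusted p = 3.23e-09). MSTRG.73784 on 7DS differed by 4.02 ± 0.13 in the same direction. The class had 1 exception, MSTRG.12257 on 2AL, a locus that joins 2 gene models, with a log2 difference of -1.87.

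Each of the 3 ascorbate peroxidase 6 copies was higher in leaf, but their order changed with the tissue. In control leaves the 7BS copy MSTRG.70840 led with 16.2 ± 1.97 FPKM, followed by the 7AS copy MSTRG.66332 at 13.5 ± 2.66 FPKM and the 7DS copy MSTRG.73886 at 7.76 ± 1.63 FPKM. In control grains the 7DS copy led with 2.37 ± 0.388 FPKM, and the 7BS copy was last with 0.386 ± 0.118 FPKM. The ranges of the 7BS and 7DS copies did not overlap in either tissue. The log2 difference of leaf minus grain was 3.31 ± 0.16 for the 7BS copy (limma adjusted p = 8.65e-09). This copy passed the filter through the leaf libraries alone, and it was also called in the fit without a filter.

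Among the transferases, F3 was higher in leaf and the 3DL locus higher in grain. MSTRG.9740, described as glutathione transferase F3 (the F marks the plant phi class), measured 14.0, 9.57 and 20.4 FPKM in control leaves and 0.758, 1.20 and 1.77 FPKM in control grains. The groups did not overlap, and the log2 difference was 2.42 ± 0.24 (limma adjusted p = 3.92e-06). The opposite held for MSTRG.32047 on 3DL, the transferase with the highest mean in control grains, where it measured 15.9, 25.3 and 31.6 FPKM. Its control leaves measured 9.52, 10.3 and 14.0 FPKM, all below the grains, and the log2 difference of leaf minus grain was -1.44 ± 0.19 (adjusted p = 3.74e-05). The chloroplast-directed DHAR3 copies were low but higher in leaf. Their log2 differences were 1.26 ± 0.25 for MSTRG.73212 on 7DS, 1.02 ± 0.13 for MSTRG.66587 on 7AS and 0.88 ± 0.12 for MSTRG.70189 on 7BS. TCHQD, a transferase class named for a resemblance to a bacterial dehalogenase, was called for its 2DL copy MSTRG.19055 alone, at 0.99 ± 0.17. The DHAR3 copies and this TCHQD copy passed the filter through the leaf libraries alone, so their direction was in part set by it. They were also called in the fit without a filter.

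Another transferase locus gave the highest mean in control leaves and could not be read as a level. MSTRG.52703 on 5DL was listed at 0 in control leaf library 1 and measured 156 and 2.36 FPKM in libraries 2 and 3. Its mean of 52.8 FPKM therefore came from 1 library, with an SD of 89.4. In grain it was listed at 0 in partial-removal libraries 1 and 2 and in shaded library 3, and lay between 10.1 and 18.4 FPKM in the control grains. Such jumps between 0 and high values within a group also marked MSTRG.8060 on 1DL, at 0, 6.21 and 14.3 FPKM in control leaves.

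Partial removal of the head moved no member past the test in leaf. Across the 48696 loci tested 1.63% were called, 1.09% higher and 0.536% lower. None of the 10 transferases was called by limma, with 1 at an unadjusted p under 0.05, and their median log2 difference was 0.25. Without scaling, which shifts the median of all loci by -0.23, that median was 0.00 with 5 of 10 below 0. None of the 43 peroxidases was called either, with an unadjusted p under 0.05 in 3 class III, 1 glutathione and 1 ascorbate peroxidase. The transferases nearest to the threshold were MSTRG.8729 on 1DL, described as glutathione transferase 2, at 0.79 ± 0.26 (adjusted p = 0.252), and MSTRG.52703 at 3.53 ± 1.58 (adjusted p = 0.420). Without control leaf library 3 the first was called, at 1.13 with an adjusted p of 0.00586, and without control leaf library 2 the second was called, at 5.60 with an adjusted p of 0.0493. The peroxidases nearest to it were MSTRG.56991 on 6AS at 0.59 (adjusted p = 0.177) and MSTRG.76577 at 0.89 (adjusted p = 0.304).

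Whole removal of the head moved the leaf peroxidases in both directions. Across all loci tested 10.8% were called higher and 9.5% were called lower, 20.3% in all. Of 27 class III peroxidases, 6 rose and 4 fell. Among these, 2 that rose had passed the filter through the whole-removal leaves alone and 1 that fell through the control leaves alone, so that each had to differ. Without the filter, 14 of the 253 peroxidases then tested rose and 9 fell. Of 13 glutathione peroxidases, 2 fell, and of 3 ascorbate peroxidases, 2 fell. None of the 16 glutathione and ascorbate peroxidases rose. Without scaling, which shifts the median of all loci by -0.15, the split of called peroxidases was 5 higher and 13 lower in place of 6 and 8, and with quantile normalization it was 6 and 11. Leaving out whole-removal leaf library 2 left 9 of the 14 calls by number, and leaving out library 3 left 7. The control leaves are shared with the partial-removal comparison.

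**Figure D3:**
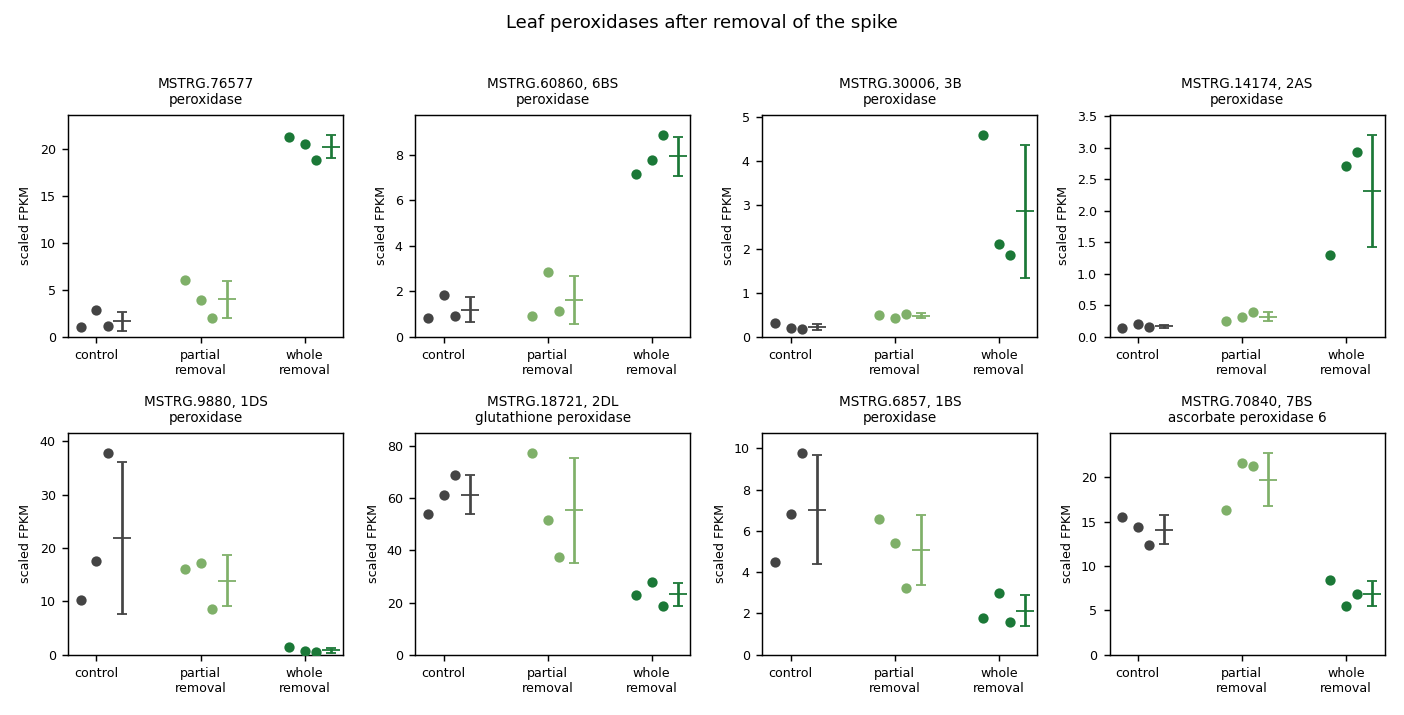
Scaled FPKM (vertical axes, from 0) of the 4 leaf peroxidases with the largest called rise (top) and the 4 with the largest called fall (bottom) after whole removal, with 1 point per library in 3 groups. Crosses and bars give the mean ± SD of 3 libraries, and in the top row the 3 whole-removal points lie above all points of the other groups. For MSTRG.30006 and MSTRG.14174 this follows in part from the filter, which they passed through the whole-removal leaves alone.

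The largest rise among the members was that of MSTRG.76577, a class III peroxidase whose gene name gives no chromosome. It measured 0.998, 2.81 and 1.13 scaled FPKM in the 3 control leaves, 5.98, 3.94 and 2.01 after partial removal, and 21.3, 20.5 and 18.8 after whole removal. All 3 whole-removal leaves lay above the rest, while the partial-removal leaves overlapped the controls. The log2 difference of whole removal against control was 3.06 ± 0.32 (limma adjusted p = 0.000616), and against partial removal 2.17 ± 0.32 (adjusted p = 0.00320). In grain the locus stayed between 0.416 and 3.09 scaled FPKM in all 9 libraries.

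MSTRG.60860 on 6BS showed the same order of groups at a lower level. Its control leaves measured 0.822, 1.82 and 0.922 scaled FPKM, its partial-removal leaves 0.923, 2.84 and 1.11, and its whole-removal leaves 7.13, 7.78 and 8.86. Only the whole-removal leaves stood apart, at a log2 difference from control of 2.05 ± 0.27 (limma adjusted p = 0.00153) and from partial removal of 1.83 ± 0.27. In grain this locus did not exceed 0.0974 scaled FPKM in any library.

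2 further class III loci rose from below 1 scaled FPKM. MSTRG.30006 on 3B measured 0.300, 0.188 and 0.167 in control leaves, 0.498, 0.415 and 0.511 after partial removal and 4.59, 2.12 and 1.86 after whole removal. MSTRG.14174 on 2AS, a locus that joins 2 gene models, measured 0.140, 0.192 and 0.152 in control leaves, 0.244, 0.310 and 0.391 after partial removal and 1.30, 2.71 and 2.93 after whole removal. For both, the 3 groups did not overlap and followed the amount of head removed. Both passed the filter through the whole-removal leaves alone and had to differ there, so their tests are given from the fit without a filter. In it the log2 differences of whole removal against control were 1.58 ± 0.24 for MSTRG.30006 (limma adjusted p = 0.00819) and 1.46 ± 0.19 for MSTRG.14174 (adjusted p = 0.00492). Their steps from control to partial removal were not called. Without one of the whole-removal leaves neither reached the filter.

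The other rises, named after their values were seen, were smaller. Peroxidase 48 on 3DL, MSTRG.32259, went from 0.925 ± 0.248 scaled FPKM in control leaves to 2.83 ± 0.205 after whole removal, a log2 difference of 1.0 ± 0.14 (limma adjusted p = 0.00228). Its partial-removal leaves averaged 0.837 ± 0.236, within the range of the controls. MSTRG.56991 on 6AS averaged 2.82 ± 0.577 scaled FPKM in control leaves, 4.74 ± 0.565 after partial removal and 5.11 ± 1.07 after whole removal. Here both treated groups lay above all 3 controls and overlapped each other. The rise of 0.67 ± 0.17 after whole removal (adjusted p = 0.0233) was lost without control leaf library 2 or 3 or whole-removal leaf library 2 or 3. It was also lost without scaling and with the replicate block.

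The largest fall was that of the leading leaf class III peroxidase, MSTRG.9880 on 1DS. It measured 10.2, 17.6 and 37.8 scaled FPKM in control leaves, 16.1, 17.2 and 8.53 after partial removal and 1.39, 0.671 and 0.511 after whole removal. Control and partial-removal leaves overlapped, and all whole-removal leaves lay far below both. The log2 difference was -3.47 ± 0.43 against control (limma adjusted p = 0.00126) and -2.98 ± 0.43 against partial removal (adjusted p = 0.00283). Under leaving out each library in turn the difference from control stayed between -3.88 and -2.99 and was called each time.

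3 other class III loci fell. MSTRG.6857 on 1BS measured 4.49, 6.82 and 9.76 scaled FPKM in control leaves, 6.58, 5.40 and 3.22 after partial removal and 1.80, 3.0 and 1.60 after whole removal. Its whole-removal leaves lay below all other leaves, at -1.33 ± 0.30 against control (limma adjusted p = 0.0144), a call lost without whole-removal leaf library 3 (adjusted p = 0.0529). MSTRG.16608 on 2BL went from 8.02 ± 0.841 to 3.83 ± 1.09 scaled FPKM, at -0.92 ± 0.27 (adjusted p = 0.0419). That call was lost without any 1 of the 3 control leaves and without whole-removal leaf library 2 or 3. It was also lost without the filter and with the replicate block. MSTRG.53903 on 5DL went from 1.06 ± 0.162 to 0.126 ± 0.0435 scaled FPKM, a log2 difference of -0.87 that is given as a description, since it passed the filter through the control leaves alone. These last loci were named after their values were seen. Rises and falls left the class III sum of the leaf at 99.9 ± 28.1 scaled FPKM in controls and 102 ± 10.9 after whole removal, and at 81.4 ± 13.3 after partial removal.

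The glutathione peroxidases that fell after whole removal were on the long arms of group 2. MSTRG.18721 on 2DL measured 54.0, 61.2 and 69 scaled FPKM in control leaves, 77.2, 51.5 and 37.4 after partial removal and 23.0, 27.8 and 18.8 after whole removal. The whole-removal leaves lay below all 6 others, at -1.38 ± 0.27 against control (limma adjusted p = 0.00789). Against partial removal the difference was -1.18 ± 0.27 (adjusted p = 0.0190), lost without partial-removal leaf library 2 or whole-removal leaf library 3. MSTRG.16028 on 2BL, named after its values were seen, measured 31.7, 31.6 and 40.9 in control leaves and 16.0, 22.2 and 15.1 after whole removal. That fall of 0.94 on the log2 scale (adjusted p = 0.0196) was lost without whole-removal leaf library 1 or 3. MSTRG.11767 on 2AL was not called, at -0.65 (adjusted p = 0.119). Of the 13 loci tested, 11 had a log2 difference below 0 against control and all 13 had one against partial removal, with medians of -0.42 and -0.45 beside -0.01 and 0.00 over all loci. Only 2 were called lower against control and 1 against partial removal, beside 9.5% and 7.95% of all loci. The class sum was 551 ± 123 scaled FPKM in control leaves, 569 ± 98.1 after partial removal and 381 ± 75.6 after whole removal.

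Of the ascorbate peroxidase 6 copies, 2 were called lower after whole removal and the 7DS copy was not called. The 7BS copy MSTRG.70840 measured 15.6, 14.4 and 12.3 scaled FPKM in control leaves, 16.3, 21.6 and 21.3 after partial removal and 8.39, 5.50 and 6.80 after whole removal. After scaling its 3 groups did not overlap, with the partial-removal leaves highest and the whole-removal leaves lowest. Before scaling the control and partial-removal leaves overlapped, and that step was not called, at 0.45 (limma adjusted p = 0.364). The log2 difference of whole removal was -0.95 ± 0.18 against control (limma adjusted p = 0.00748) and -1.40 ± 0.18 against partial removal (adjusted p = 0.00176). The 7AS copy MSTRG.66332, named after its values were seen, measured 13.8, 12.2 and 9.30 in control leaves and 7.32, 5.53 and 5.84 after whole removal. These groups did not overlap either, and the fall of 0.81 on the log2 scale (adjusted p = 0.0166) was lost without control leaf library 1 or 2 or whole-removal leaf library 2 or 3. The 7DS copy MSTRG.73886 measured 7.82, 7.25 and 5.19 in control leaves and 10.3, 4.81 and 6.29 after whole removal, which overlapped, and its log2 difference was 0.03 (adjusted p = 0.959). Without scaling, without control leaf library 3 and without whole-removal leaf library 1, all 3 copies stood below 0. Whether the copies differ in their response was not tested.

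No transferase was called between whole removal and control by limma, with 4 of 10 at an unadjusted p under 0.05 and a median log2 difference of 0.12, which became -0.02 without scaling. F3, MSTRG.9740, came nearest, with 12.2, 8.25 and 17.9 scaled FPKM in control leaves, 16.5, 10.9 and 11.8 after partial removal and 4.55, 8.77 and 3.55 after whole removal. Control and whole-removal leaves overlapped by 1 library, and the log2 difference was -1.08 ± 0.33 (adjusted p = 0.0510). It was called without scaling (-1.27, adjusted p = 0.0206), with quantile normalization (-1.13, adjusted p = 0.0386), without control leaf library 2 (-1.34, adjusted p = 0.0366) and without whole-removal leaf library 2 (-1.39, adjusted p = 0.0263). The other was glutathione transferase 2, MSTRG.8729, at -0.73 ± 0.26 (adjusted p = 0.0802), which was called with a pseudocount of 0.1 (-1.85, adjusted p = 0.0437) and without control leaf library 1 (-0.94, adjusted p = 0.0496).

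**Figure D4:**
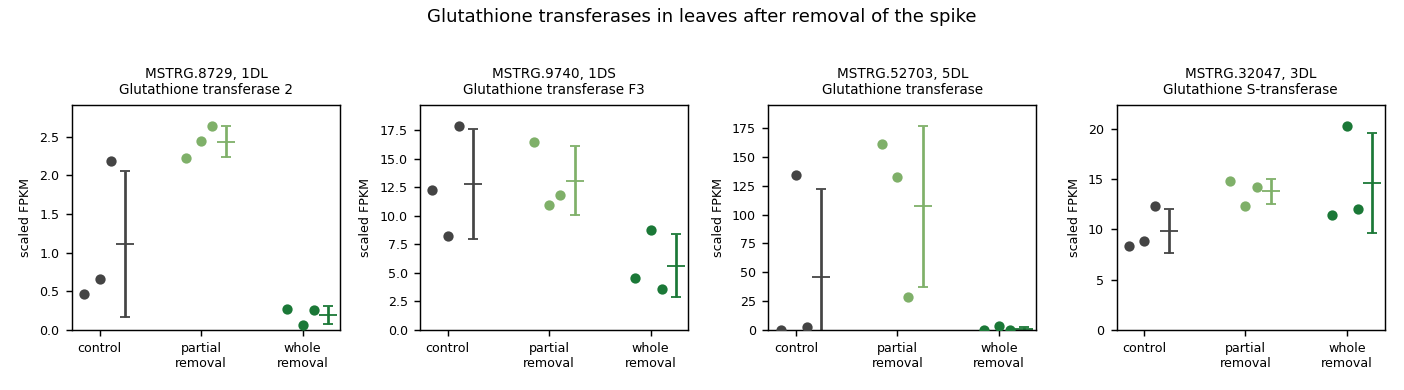
Scaled FPKM (vertical axes, from 0) of 4 glutathione transferases in the 9 leaf libraries, with 1 point per library in 3 groups. Crosses and bars give the mean ± SD of 3 libraries, with bars that would reach below 0 ended at the axis. MSTRG.8729 shows 3 partial-removal points above all others, 1 control point just below them, an order that does not hold before scaling. That locus passed the filter through the partial-removal leaves alone. MSTRG.52703 jumps between 0 and over 100 within a group.

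Between whole and partial removal, 16.5% of all loci were called, 8.57% higher after whole removal and 7.95% lower. Of 10 transferases 3 were lower after whole removal and none higher. Glutathione transferase 2, MSTRG.8729, measured 2.23, 2.45 and 2.64 scaled FPKM after partial removal and 0.268, 0.0616 and 0.254 after whole removal, with control leaves in between at 0.469, 0.656 and 2.19. After scaling the treated groups lay on either side of all 3 controls. Control leaf library 3, at 2.19, was just below the lowest partial-removal leaf, and before scaling it lay above all 3 of them. The log2 difference of whole against partial removal was -1.53 ± 0.26 (limma adjusted p = 0.00573). Since the locus passed the filter through the partial-removal leaves alone, the fit without a filter is given too, at -1.54 ± 0.27 (adjusted p = 0.0166). In grain the same locus lay between 0.786 and 2.30 scaled FPKM in the 9 libraries. F3 was lower by this contrast as well, at -1.15 ± 0.33 (adjusted p = 0.0469), a call kept with whole-removal leaf library 2 left out and lost with any other library of these groups left out. It was also lost without scaling, with quantile normalization, without the filter and with the replicate block, and was kept with a pseudocount of 0.1. The erratic MSTRG.52703 went from 161, 133 and 28.4 scaled FPKM after partial removal to 0, 2.93 and 0.0221 after whole removal, at -5.76 ± 1.58 (adjusted p = 0.0382), and that call was lost with any of these 6 libraries left out. A pseudocount of 0.1 and the fit without the filter lost it too. Among the peroxidases 5 of 43 were higher and 6 lower, with 2 of the higher and 1 of the lower again past the filter through 1 group alone, a split that became 5 and 4 both without scaling and with quantile normalization. Leaving out whole-removal leaf library 2 or 3 took these 11 calls to 7 and 6.

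In grain, partial removal was followed by very few calls over the whole table, 0.0284% of 45784 loci, 0.00655% higher and 0.0218% lower. Of the 93 members tested, 1 class III peroxidase was lower, and no transferase, glutathione peroxidase or ascorbate peroxidase was called by limma, with 2 glutathione peroxidases at an unadjusted p under 0.05. Shading with loss of the leaves gave calls in 1.82% of loci, 0.325% higher and 1.5% lower. Of 74 class III peroxidases, 6 fell and none rose, with 18 at an unadjusted p under 0.05. None of 5 transferases, 12 glutathione peroxidases and 2 ascorbate peroxidases was called, with 1 glutathione peroxidase at an unadjusted p under 0.05. The median log2 difference of the class III loci was -0.16, with 48 of 74 below 0, and without scaling -0.43, with 63 of 74 below 0. It was -0.29 without control grain library 1, -0.09 without control grain library 2 and -0.09 without shaded library 3, and without the filter -0.01 over 313 loci. The glutathione peroxidases had a median of 0.00, which became -0.49 without scaling, where the median of all loci shifts by -0.31. Both grain comparisons share the control grains.

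The 3 largest falls among the members called in shaded grains were those of class III peroxidases on the short arms of group 6, 1 on each genome. MSTRG.57620 on 6AS measured 7.13, 5.68 and 5.73 scaled FPKM in control grains, 2.47, 2.41 and 3.37 after partial removal and 0.653, 0.832 and 0.877 in shaded grains. MSTRG.60677 on 6BS measured 5.51, 4.73 and 4.43 in control grains, 1.63, 1.43 and 2.05 after partial removal and 0.566, 0.512 and 0.677 in shaded grains. MSTRG.63959 on 6DS measured 2.20, 1.90 and 2.12 in control grains, 1.34, 0.920 and 1.1 after partial removal and 0.229, 0.50 and 0.153 in shaded grains. For each of the 3 the groups did not overlap and ran in the order control, partial removal, shaded. How many loci of the whole table show this order was not counted.

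The log2 difference of shaded against control grains was -2.00 ± 0.13 for the 6AS locus MSTRG.57620 and -1.89 ± 0.12 for the 6BS locus MSTRG.60677 (limma adjusted p = 0.00103 for both). It was -1.26 ± 0.13 for the 6DS locus MSTRG.63959 (adjusted p = 0.00602). Without shaded library 2 these were -2.13, -1.97 and -1.51, and all 3 were called. After partial removal the 6BS locus alone was called, at -1.12 ± 0.12 (adjusted p = 0.0284), while the 6AS locus stood at -0.94 ± 0.13 (adjusted p = 0.101) and the 6DS locus at -0.54 ± 0.13 (adjusted p = 0.347). Without shaded library 2 the partial-removal call had an adjusted p of 0.0449, and it was lost without control grain library 1 or 3 or partial-removal grain library 1 or 2, and under each of the other settings except quantile normalization. In leaves the 3 loci were all but silent, with a highest value of 0.0330 scaled FPKM in any leaf library.

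**Figure D5:**
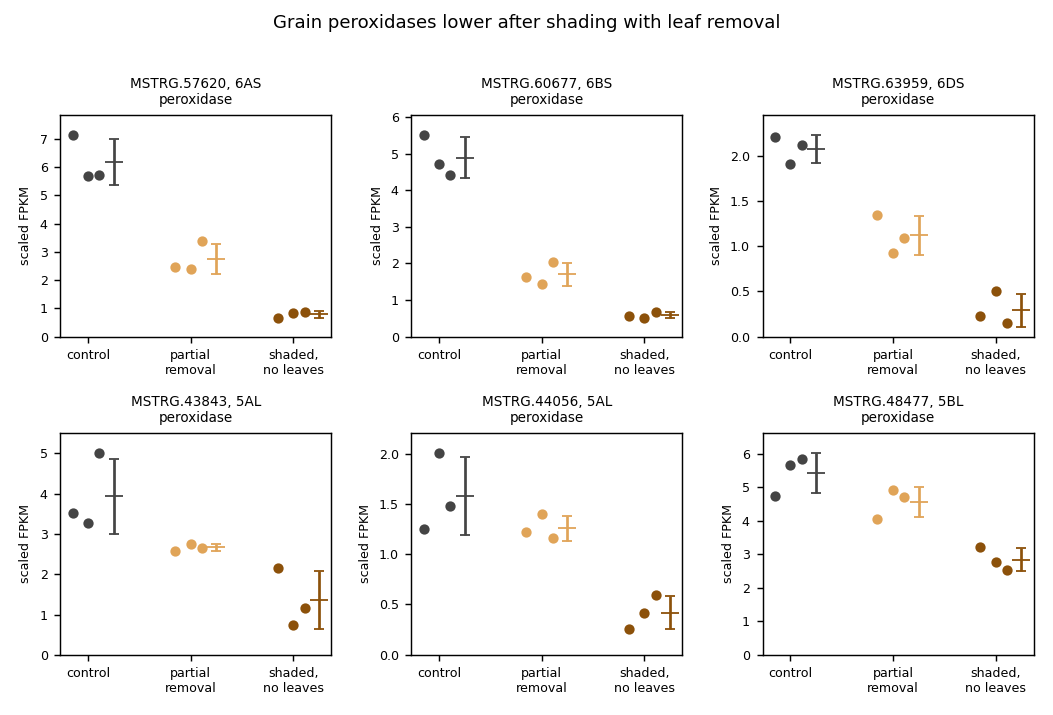
Scaled FPKM (vertical axes, from 0) of the 6 class III peroxidases called lower in shaded grains, with 1 point per library in 3 groups. Crosses and bars give the mean ± SD of 3 libraries, and in the top row, the loci on the short arms of group 6, the 3 groups do not overlap. They do not overlap for MSTRG.43843 either.

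The storage protein transcripts of the grain moved in the same order of groups. Summed over 17 gliadin and glutenin loci, they ranged from 4770 to 6814 scaled FPKM in control grains, from 1991 to 2525 after partial removal and from 751 to 1849 in shaded grains. Of the 17 loci 16 were above 0 in control grains, 15 after partial removal and 13 in shaded grains. Their part in the fall of the peroxidases was not tested.

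The other 3 calls in shaded grains were on group 5 and were weaker. MSTRG.43843 on 5AL measured 3.53, 3.26 and 5.00 scaled FPKM in control grains, 2.58, 2.75 and 2.66 after partial removal and 2.16, 0.751 and 1.16 in shaded grains, at -1.09 ± 0.21 (limma adjusted p = 0.0424). MSTRG.44056 on 5AL went from 1.58 in control grains to 0.420 in shaded grains, at -0.86 (adjusted p = 0.0213), and MSTRG.48477 on 5BL from 5.43 to 2.84, at -0.74 (adjusted p = 0.0202). The latter pair was named after its values were seen. Without shaded library 2 none of the 3 was called, at adjusted p-values of 0.102, 0.0650 and 0.0658, so that 3 of 74 class III loci were called; without scaling these 3 were not called either. Without control grain library 2 or 3 the count was also 3.

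The leading grain peroxidases of group 3 did not follow this pattern past the test. MSTRG.23911 on 3AL averaged 83.4 ± 24.8 scaled FPKM in control grains, 67.4 ± 4.73 after partial removal and 57.2 ± 4.68 in shaded grains, and its difference in shaded grains was -0.49 ± 0.23 (limma adjusted p = 0.335). MSTRG.27548 on 3B stood at -0.38 ± 0.23 (adjusted p = 0.467) and MSTRG.30685 on 3DL at -0.01 ± 0.18 (adjusted p = 0.975). Outside the rule for naming, and chosen after its values were seen, MSTRG.74708 on 7DS had the largest fitted fall of a class III locus without being called. It measured 14.7, 9.24 and 24.9 scaled FPKM in control grains, 0, 4.27 and 0 after partial removal and 1.34, 0.729 and 1.34 in shaded grains. All control grains lay above all treated grains, and the adjusted p was 0.218 for partial removal and 0.0551 for shading.

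The class III sum in grain was 475 ± 85.4 scaled FPKM in controls, 457 ± 48.2 after partial removal and 385 ± 41.2 in shaded grains, and the groups overlapped. The glutathione peroxidase sum was 114 ± 7.04, 104 ± 8.21 and 111 ± 17.8 in the same order. The transferase MSTRG.32047 on 3DL, the highest in grain, averaged 21.6 ± 5.15, 20.0 ± 2.75 and 21.5 ± 1.87 scaled FPKM. The transferases with the smallest p were MSTRG.8060 at -0.98 (limma adjusted p = 0.820) and MSTRG.52703 at -2.46 (adjusted p = 0.845) after partial removal. In shaded grains they were F3, MSTRG.9740, at 0.29 (adjusted p = 0.365) and MSTRG.8060 at -0.63 (adjusted p = 0.572).

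Partial removal was the treatment given to both tissues, and the difference between its effects in leaf and in grain was tested directly. Over 31683 loci 0.0852% were called, 0.0316% with the higher effect in leaf and 0.0537% with the lower. None of 5 transferases, 7 class III, 11 glutathione and 2 ascorbate peroxidases was called by limma, with 2 transferases and no peroxidase at an unadjusted p under 0.05. The smallest adjusted p was 0.268 among the transferases and 0.436 among the peroxidases.

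Other genes that make or remove hydrogen peroxide or handle glutathione were counted from lists of descriptions. Their counts after whole removal stand beside the 10.8% of all loci called higher and 9.5% called lower. Of 25 superoxide dismutases and catalases, 4 rose in leaf and 4 fell. The 4 that fell were catalases, which break hydrogen peroxide down in peroxisomes. MSTRG.45623 on 5AL, the highest of these, measured 191, 236 and 193 scaled FPKM in control leaves and 130, 106 and 84.9 after whole removal. The groups did not overlap, at -0.96 (limma adjusted p = 0.0328). A catalase on 6DS, MSTRG.64346, went the other way, from 19.2, 52.3 and 13.8 in control leaves to 103, 71.4 and 94.2 after whole removal, at 1.83 (adjusted p = 0.0143). The other 3 that rose were superoxide dismutases, which produce hydrogen peroxide from superoxide.

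In the lignin list 5 of 17 loci rose after whole removal and none fell, beside 10.8% higher and 9.5% lower over all loci. The 5 were phenylalanine ammonia-lyases, the entry enzyme of phenylpropanoid synthesis, of 6 tested, and none of 6 laccases, which polymerise lignin precursors alongside class III peroxidases, was called. Among them MSTRG.55725 on 6AL measured 0.929, 1.33 and 1.35 scaled FPKM in control leaves and 11.8, 14.3 and 9.18 after whole removal, at 2.52 ± 0.21 (limma adjusted p = 0.000230). The whole-removal leaves lay far above the controls, and the 5 log2 differences ran from 1.28 to 2.66.

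Of 56 peroxiredoxins, thioredoxins and glutaredoxins, 6 rose, a share near the 10.8% of all loci, and 2 fell, against 9.5% of all loci, so the counts are no result about the list. All 3 copies of the ferredoxin-thioredoxin reductase catalytic chain, which passes photosynthetic electrons to chloroplast thioredoxins, rose by 0.92 to 1.0 on the log2 scale. Of 8 glutathione synthesis loci 1 rose, of 4 recycling loci 1 rose (a locus that joins an exocyst component to a glutathione reductase), of 3 ABC transporters of the C family 1 rose, and neither of the 2 glyoxalases was called. After partial removal the calls in leaf were a superoxide dismutase, MSTRG.36628 at 0.77 (limma adjusted p = 0.0220), and a thioredoxin F, MSTRG.26631 at 1.11 (adjusted p = 0.0491), both higher. No gene of these lists was called in grain in either comparison.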

How the data were processed

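Poly(A) RNA of wheat flag leaves and grains was sequenced in read pairs on an Illumina instrument, per the labels' protocols. The deposited table gives FPKM per locus, computed by the authors; the submitters' processing notes name HISAT, StringTie and edgeR, without roles. Genome build, versions and strand are not given in the sources used here; chromosome arms were read from the TGACv1 gene names in the table. None of the members was found in the RefSeq gene table, and no sequence was used. Read counts were not used, so depth is unknown and precision comes from the spread between libraries.

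Per tissue, each library's FPKM was divided by its median ratio to the geometric means of tested loci above 0 in all 9 libraries (46922 in leaf, 44129 in grain). log2(scaled FPKM + 1) was fitted with limma 3.58.1 in R 4.3.3 (1 mean per group, trended moderated variances), and tested on simulated data. Tests were two-sided with Benjamini-Hochberg adjustment at 0.05. Within each of the 2 classes and each comparison, the text names the 4 largest called rises and falls, or the 2 smallest p where none was called, and for levels the highest means. Members, lists and rules were chosen with earlier results of these data known. Alternatives were a pseudocount of 0.1, no filter, no scaling, quantile normalization, a replicate block and each library left out; leaving shaded library 2 out of the partial-removal comparison in grain was chosen after seeing the data.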

Additional observations from a re-analysis of the deposited data

How the results depend on the processing

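No called member changed direction under the settings tried; MSTRG.73886, not called after whole removal, did. For single named members 530 values kept their side of the threshold, 37 were no longer called and 9 became called. Of 14 members called after whole removal, 9 were called under all settings in which they were tested. This held for 9 of 14 between whole and partial removal, 3 of 6 in shaded grains and 0 of 1 in grains after partial removal. Between tissues it held for 98 of 100. The 9 after whole removal include MSTRG.14174, MSTRG.30006 and MSTRG.53903. Those between whole and partial removal include MSTRG.14174, MSTRG.30006 and MSTRG.8729. All of these passed the filter through 1 group alone, and most class III calls between tissues through 1 tissue alone. For such loci leaving out a library cannot show how firm the call is, since the filter helped to set it. Without the filter on low values the called peroxidases numbered 23 in place of 14 (whole removal), 18 in place of 11 (whole against partial), 0 in place of 1 (partial removal, grain), 3 in place of 6 (shaded grain), 1 in place of 0 (leaf against grain effect of partial removal) and 173 in place of 94 (leaf against grain); more loci were tested there. Without it the called transferases numbered 1 in place of 3 between whole and partial removal. With a pseudocount of 0.1, 1 transferase was called after whole removal and 0 peroxidases in grain after partial removal. Without scaling, 2 transferases were called after whole removal and 1 in grain after partial removal; with quantile normalization, 1 after whole removal. The cause was not tested. With each library left out in turn, called transferases ranged from 0 to 1 after partial removal, from 0 to 2 after whole removal and from 1 to 2 between whole and partial removal in leaf. Called peroxidases ranged from 7 to 12 after whole removal, from 6 to 11 between whole and partial removal, from 0 to 1 in grain after partial removal and from 3 to 6 in shaded grain.

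Equal library numbers gave no sign of pairing: over 18 same-numbered pairs the correlation of deviations ran from -0.368 to 0.117. Over pairs with different numbers it ran from -0.243 to 0.343. With 3 libraries a group, such correlations cannot decide whether the numbers pair the samples. With the number as a replicate block, 13 peroxidases were called after whole removal, 9 between whole and partial removal, 4 in shaded grain, 94 between tissues and 0 in grain after partial removal; transferases numbered 2 between whole and partial removal and 7 between tissues.

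With 3 libraries a group, FPKM in place of counts and 232 of 375 members below an FPKM of 1, small changes of low loci were not detectable, and members without a description were not seen. The shaded group rests on 3 libraries of which 1 stands apart.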

Other observations

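The table also held 67 loci without a matching description that carry the KEGG entry for glutathione S-transferase, and these were looked at after the results for the described transferases were seen. They summed to 288 ± 16.6 FPKM (SD, n = 3) in control leaves and 197 ± 53.4 FPKM in control grains, against 100.3 ± 84.7 and 49.1 ± 15.5 FPKM for the 12 described loci. Of 31 tested between the tissues, 12 were called higher in leaf and 13 lower, beside 34.9% and 36.8% of all loci. Of 25 tested in leaf, none was called after partial removal by limma. After whole removal 3 rose and 4 fell, beside 10.8% and 9.5% of all loci. MSTRG.45811 on 5AL measured 0.286, 0.987 and 0.427 scaled FPKM in control leaves, 0.979, 1.65 and 1.84 after partial removal and 5.36, 2.16 and 3.08 after whole removal, at 1.5 (limma adjusted p = 0.00602). Its whole-removal leaves lay above all others. MSTRG.52837 on 5DL measured 7.05, 5.11 and 12 in control leaves and 1.26, 1.69 and 2.16 after whole removal, at -1.69 (adjusted p = 0.00342), with no overlap.

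In grain 1 of 23 such loci was called, MSTRG.39347 on 4BS. It measured 8.15, 10.7 and 18.0 scaled FPKM in control grains, 4.59, 8.0 and 3.87 after partial removal and 0.490, 1.01 and 1.06 in shaded grains. The group means ran in the same order as those of the class III peroxidases on the short arms of group 6. Control and partial-removal grains were parted only by 8.15 and 8.0, in libraries with scaling factors of 0.922 and 1.40. Before scaling they overlapped, and the step to partial removal was not called. All shaded grains lay below the rest, and the fall there was 2.79 on the log2 scale (limma adjusted p = 0.00680). In leaf the same locus fell after whole removal, by 0.91 on the log2 scale (adjusted p = 0.0313).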
